A study of Mus musculus with 6 samples.

Results

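The 10 genes described here mark T cells and natural killer (NK) cells: Gzma, Gzmb, Prf1 and Nkg7 of the cytotoxic granule, the kinase gene Lck, the leukocyte phosphatase gene Ptprc, the CD3 chain genes Cd3d, Cd3e and Cd3g, and the coreceptor gene Cd8a. They were taken by symbol, and all 10 had a row among the 24421 gene symbols counted. RNA was sequenced from endothelial cells that had been isolated by flow cytometry out of subcutaneous B16F0 tumours, a transplantable mouse melanoma, grown for 17 days in C57BL/6 mice. The 3 libraries of the 15C4 group (15C4 1, 2 and 3) came from mice injected with the antibody 15C4 at 50 mg/kg every 3 days, and the 3 of the IgG group (IgG 1, 2 and 3) from mice given IgG on the same schedule. 15C4 blocks LRG1, a secreted glycoprotein that acts on blood vessels. The sources used here do not name the sort markers, the age and sex of the mice, or a separate mouse for each library. P-values therefore describe the spread among libraries, part of which may be technical.

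T cells recognise peptides through a T cell receptor whose signal is passed on by the CD3 chains, with CD8 as the coreceptor of cytotoxic T cells. NK cells carry no such receptor and are switched on and off by receptors encoded in the germline. Both cell types kill by releasing granules that hold perforin and granzymes, and both share much of their signalling machinery. Endothelial cells do not normally make the CD3 chains, CD8, perforin or CD45.

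Library totals ranged from 5175600 to 19572202 counts, with IgG 1 the shallowest. IgG 1 stood apart for these genes. It held 2542 of the 2816 counts that the 10 members had in all 6 libraries, or 90.3%. The other libraries held 70, 35 and 13 member counts (15C4 1, 2 and 3) and 138 and 18 (IgG 2 and 3). Scaled by the library totals to counts per 1000000 counts (CPM), the members together came to 8.33, 1.79 and 2.03 CPM in 15C4, against 491, 14.3 and 1.54 CPM in IgG. Each of the 10 was highest in IgG 1, as were 16.6% of the 16089 genes with at least 1 count. In bulk libraries, fewer cells of a type and less RNA per cell cannot be told apart. Pan-endothelial genes summed to 1284 CPM in IgG 1, within the range of the others (131 CPM in IgG 3 to 2338 CPM in 15C4 2). Melanocyte genes summed to 23259 to 28464 CPM, above the pan-endothelial genes in every library of this endothelial sort.

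The upstream sequences of the 4 granule genes are shown first, because these genes carried most of the member counts and were high together. Each is the 250 bases before the transcription start from RefSeq (GRCm38.p6), 5′ to 3′ on the strand of the gene. Capitals mark matches on either strand to 3 short motifs, named for the transcription factor families they are known for in lymphocytes: RUNX (TGTGGT), ETS (AGGAAGT) and T-box (GGTGTGA).
Gzma (chr13:113100982-113101231, minus strand): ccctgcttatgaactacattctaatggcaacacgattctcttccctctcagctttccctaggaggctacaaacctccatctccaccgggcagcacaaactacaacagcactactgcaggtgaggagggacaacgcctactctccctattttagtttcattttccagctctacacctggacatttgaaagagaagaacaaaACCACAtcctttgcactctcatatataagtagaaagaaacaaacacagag
Gzmb (chr14:56262335-56262584, minus strand): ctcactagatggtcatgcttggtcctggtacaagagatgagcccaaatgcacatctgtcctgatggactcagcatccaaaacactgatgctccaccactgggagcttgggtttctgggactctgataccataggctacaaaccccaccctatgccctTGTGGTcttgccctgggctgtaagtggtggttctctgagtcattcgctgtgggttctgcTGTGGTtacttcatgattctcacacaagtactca
Prf1 (chr10:61297586-61297835, plus strand): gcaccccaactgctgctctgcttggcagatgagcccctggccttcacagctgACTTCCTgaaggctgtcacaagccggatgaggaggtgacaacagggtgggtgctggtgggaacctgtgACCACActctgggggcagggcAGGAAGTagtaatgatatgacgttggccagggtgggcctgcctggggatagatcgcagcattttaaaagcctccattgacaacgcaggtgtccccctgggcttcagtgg
Nkg7 (chr7:43436888-43437137, plus strand): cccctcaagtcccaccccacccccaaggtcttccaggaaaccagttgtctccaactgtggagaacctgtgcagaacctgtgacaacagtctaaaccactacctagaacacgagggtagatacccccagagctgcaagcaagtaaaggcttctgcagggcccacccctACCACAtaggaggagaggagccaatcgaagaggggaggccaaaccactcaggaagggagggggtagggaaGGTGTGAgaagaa
The RUNX letters occurred in all 4 of these windows and in 5 of the 12 windows of the 10 members, the fifth being 1 of the 2 windows of Lck. Among all 32851 windows of this length in the table, 14% held them. The ETS letters occurred in 7 of the 12 member windows (those of Ptprc, Lck, Cd3d, Cd3e and Prf1), against 7.69% of all windows. The T-box letters occurred in 1, that of Nkg7, against 3.33%. The Nkg7 window ends at 43437137, which is past the gene start given below (43437073, from GENCODE M21). The T-box match lies in that overlap, so it is upstream by the RefSeq start only. By the gene coordinates below, both windows of Ptprc and the Lck window without the RUNX letters lie inside the gene. The ETS match of Cd3e crosses the gene start. These ETS matches too are upstream by the RefSeq starts only. Within a window no match overlapped another, but the 2 windows of Ptprc overlap and share 1 ETS match, so the counts of windows are not of separate sites. A match is a description of the letters only.

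Gzma encodes granzyme A, a granule protease (GRCm38 chromosome 13, 113093825 to 113100981, minus strand). It had 11, 16 and 5 counts in the 15C4 libraries, against 923, 44 and 6 in the IgG libraries, which is 1.31, 0.817 and 0.782 CPM against 178, 4.56 and 0.514 CPM. One library, IgG 1, was far above the rest, and IgG 3 was the lowest of all, so the groups overlapped. Gzma in IgG 1 was 39.1-fold above IgG 2, the next highest (95% interval 28.9 to 54.2, exact). This interval and those that follow cover counting error only and leave out the spread between libraries. They may be too narrow even for counting error, since amplified reads carry no molecular identifiers and 1 molecule can be read several times.

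Nkg7, which encodes a granule membrane protein needed for the release of cytotoxic granules (chromosome 7, 43437073 to 43438249, plus strand), had 1.90, 0.204 and 0.626 CPM in the 15C4 libraries, against 105, 2.90 and 0.257 CPM in the IgG libraries. Gzmb encodes granzyme B, the protease that starts apoptosis in target cells (chromosome 14, 56258838 to 56262260, minus strand). It had 11, 2 and 1 counts in the 15C4 libraries, against 242, 3 and 2 in the IgG libraries. Outside IgG 1, the highest Gzmb level was therefore in a 15C4 library, 15C4 1 at 1.31 CPM. Prf1, the gene of the pore-forming protein perforin (chromosome 10, 61297833 to 61304680, plus strand), had 0, 2 and 1 counts in the 15C4 libraries, against 147, 11 and 2 in the IgG libraries. It was the 1 member whose groups did not overlap in CPM. The margin was small, with 15C4 3 at 0.156 CPM and IgG 3 at 0.171 CPM, below the 3-count floor of both libraries (0.469 and 0.257 CPM). Among the 11144 genes with enough counts to be tested, which did not include Prf1, 6.64% lay lower in 15C4 without overlap.

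**Figure D1:**
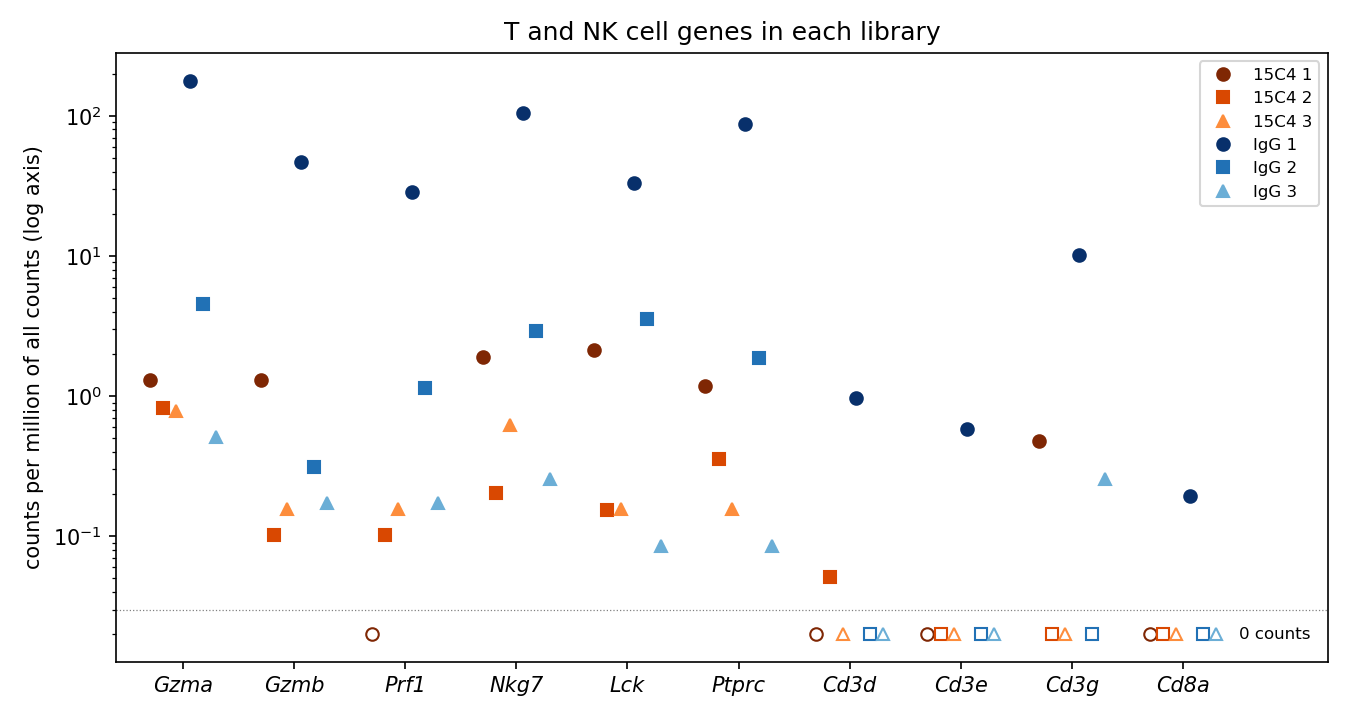
Level of the 10 genes in each library, in CPM on a log axis, with the 15C4 libraries in orange left of the IgG libraries in blue and open symbols for 0 counts. IgG 1 is the highest library for every gene, from 0.193 CPM for Cd8a to 178 CPM for Gzma.

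Lck encodes the kinase that phosphorylates the CD3 chains at the start of T cell receptor signalling, and NK cells use it as well (chromosome 4, 129548344 to 129573641, minus strand). It had 18, 3 and 1 counts in the 15C4 libraries, against 172, 34 and 1 in the IgG libraries. Lck was the member least concentrated in IgG 1, which held 84.6% of its CPM summed over the 6 libraries, against 93.3% to 100% for the other 9 members. Ptprc encodes CD45, the phosphatase present on all nucleated blood cells, which sets the activity of Lck (chromosome 1, 138062861 to 138175708, minus strand). It had 1.19, 0.358 and 0.156 CPM in the 15C4 libraries, against 86.9, 1.87 and 0.0857 CPM in the IgG libraries. For both genes IgG 3 was the lowest library, so again the groups overlapped.

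The CD3 chain genes and Cd8a were low in every library. The 3 CD3 genes lie together on chromosome 9, Cd3g from 44969572 to 44980431 on the minus strand, Cd3d from 44981786 to 44987339 on the plus strand and Cd3e from 44998740 to 45009627 on the minus strand. Cd3g had 4, 0 and 0 counts in the 15C4 libraries, against 53, 0 and 3 in the IgG libraries. Cd3d had 0, 1 and 0 against 5, 0 and 0, Cd3e had 0 in each 15C4 library against 3, 0 and 0, and Cd8a (chromosome 6, 71373427 to 71379173, plus strand) had 0 in each against 1, 0 and 0. Outside IgG 1, Cd3e and Cd8a were thus at 0 in all 5 libraries, where 3 counts correspond to 0.153 to 0.469 CPM.

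Per kilobase of exon, which allows levels of different genes to be compared, IgG 1 held Gzma at 177, Nkg7 at 115, Gzmb at 32.6, Lck at 11.3, Prf1 at 11 and Ptprc at 4.75 CPM per kilobase. Cd3g was at 3.13, Cd3d at 0.532, Cd3e at 0.142 and Cd8a at 0.0531 CPM per kilobase. The granule genes thus stood above the T cell receptor genes in this library. The lengths are of all annotated exons of a gene (GENCODE M21, 18313 bases for Ptprc), so a gene with long, rarely used exons is placed too low.

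The name of the gene set covers T cells and NK cells, and the markers of each were set apart. In IgG 1, the 5 NK cell receptor genes Ncr1, Klrb1c, Klrk1, Klrd1 and Klre1 had 270, 246, 276, 153 and 133 counts. They encode NKp46, NK1.1, NKG2D, CD94 and a further lectin-like receptor of NK cells. Of 12 T cell genes, Cd2 had 58, Cd3g 53, Cd247 21 and Cd28 14 counts, Cd3d 5, Cd3e 3, and Cd6 and Cd8a 1 each, while Cd4, Cd8b1, Cd5 and Trat1 had 0. Cd247, the zeta chain gene, and Cd2 are also used by NK cells. Whether T cells gave part of the NK cell receptor counts was not tested. NK cell receptor genes averaged 17.6 CPM per kilobase in IgG 1 and T cell genes 0.960, a ratio of 18.3. Over the whole lists, with all 11 NK cell receptor genes that have an annotated length and with Thy1 and Cd27 added to the 12 T cell genes, the means were 10.7 and 1.11 CPM per kilobase, a ratio of 9.61. The label of the set thus holds in IgG 1 for the NK cell markers. Among the T cell genes, Cd4, Cd8b1, Cd5 and Trat1 were at 0 there, and Cd3d, Cd3e, Cd6 and Cd8a had 5 counts or fewer. Cd2, Cd3g, Cd247 and Cd28 had 14 to 58 counts. Together the 12 T cell genes had 156 counts in IgG 1, against at most 7 in any other library. The constant regions of the T cell receptor could not be read. No row among the gene symbols counted was found for Trac, Trbc1, Trbc2, Trdc, Trgc1, Trgc2, Tcra or Tcrb.

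**Figure D2:**
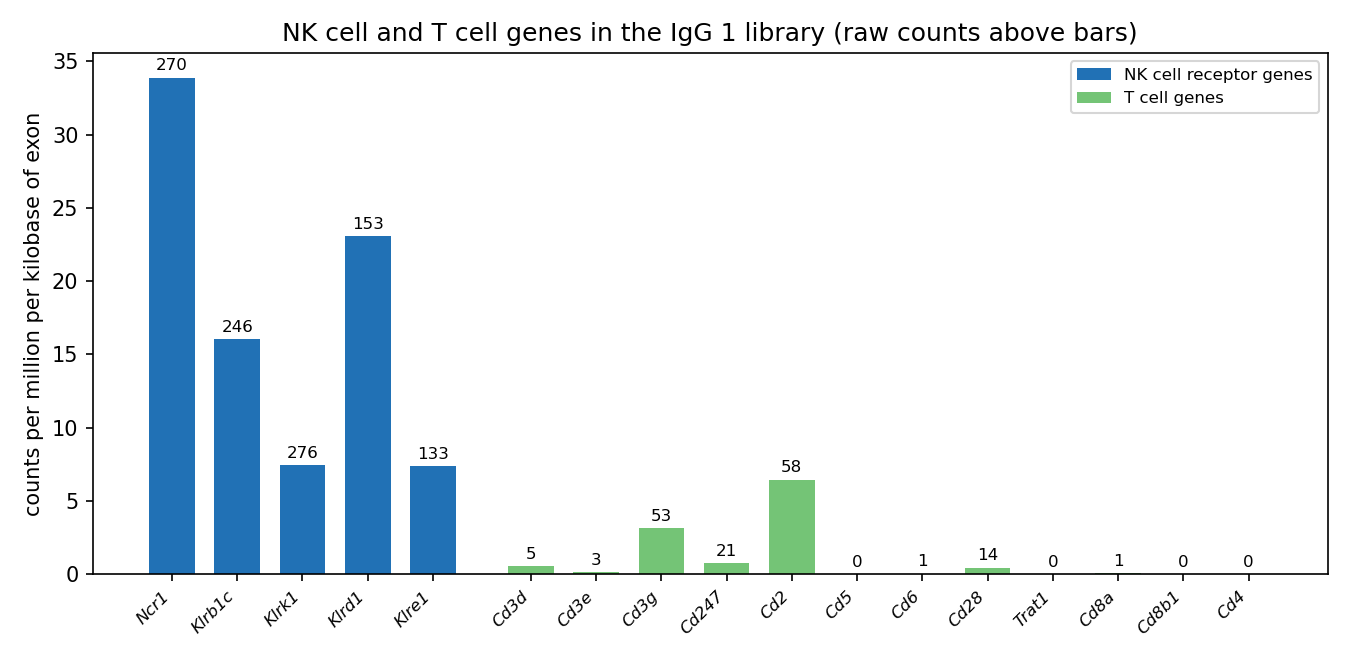
Level in CPM per kilobase of exon in the IgG 1 library for 5 NK cell receptor genes (blue) and 12 T cell genes (green), with the raw count of each above its bar. The 5 NK cell receptor genes have 133 to 276 counts, and of the T cell genes Cd2 is the highest with 58.

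Over all libraries, the 5 NK cell receptor genes summed to 36, 22 and 4 counts in 15C4, against 1078, 59 and 11 in IgG. The 12 T cell genes summed to 7, 1 and 0 counts in 15C4, against 156, 4 and 4 in IgG. With these markers, NK cell receptor genes had more counts than T cell genes in the 5 libraries other than IgG 1, on small totals. The ratio of the means per kilobase was 18.9 in 15C4 1, 41.0 in 15C4 2, 78.4 in IgG 2 and 8.63 in IgG 3. The ratio thus did not set IgG 1 apart. Over the whole lists IgG 2 went the other way, with 75 counts of NK cell receptor genes and 667 of T cell genes, of which Thy1 held 655.

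The design asks how 15C4 changed expression relative to IgG. None of the members passed the test. Of the 10, 4 (Gzma, Nkg7, Lck and Ptprc) had enough counts to be tested, by reaching the minimum in 15C4 1, IgG 1 and IgG 2. The quasi-likelihood test of edgeR, adjusted over the 11144 genes tested with a threshold of 0.05, called 0 of these 4 and 0% of all genes as lower in 15C4. The log2 fold change of 15C4 over IgG was -5.90 (SE 1.92) for Gzma, -5.65 (SE 2.17) for Ptprc, -5.29 (SE 2.03) for Nkg7 and -3.91 (SE 2.06) for Lck, and the edgeR adjusted p was 1.00 for each. Before adjustment, 3 of the 4 (all but Lck) had an edgeR p below 0.05, against 1.33% of tested genes that were lower in 15C4 with such a p. All 4 fitted below 0, with a median of -5.47, where 49.3% of all tested genes did and the median of all was 0.01.

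The size of these fold changes rests on IgG 1. Means were 0.970 ± 0.295 CPM in 15C4 and 61.1 ± 102 CPM in IgG for Gzma, 0.912 ± 0.885 against 36.2 ± 60.0 CPM for Nkg7, and 0.568 ± 0.548 against 29.6 ± 49.6 CPM for Ptprc (SD, n = 3 each). The IgG SD exceeded the IgG mean in each case. Without IgG 1 the edgeR log2 fold change was -1.29 (SE 2.08) for Gzma, -0.72 (SE 2.41) for Ptprc, -0.74 (SE 2.27) for Nkg7 and -1.12 (SE 2.46) for Lck, again with an adjusted p of 1.00 and with an unadjusted p under 0.05 for 0 of 4. Each of these values was smaller than its own SE, and 0 of the 4 lay above 0, where 50.9% of the genes tested without IgG 1 did. Gzma, Lck, Nkg7 and Ptprc had 44, 34, 28 and 18 counts in IgG 2, against 6, 1, 3 and 1 in IgG 3. These 4 signs thus rest on IgG 2 and are not separate observations. With no filter on low counts all 10 members could be fitted and all 10 lay below 0, against 51.7% of 16089 genes. Cd3e and Cd8a had counts in IgG 1 only, so their sign was fixed by that library. IgG 1 held 75.1% to 100% of the counts of each member, so the 10 signs are not separate observations. Without both the filter and IgG 1, 8 could be fitted and 3 of them (Gzmb, Cd3d and Cd3g) lay above 0, against 52.8% of genes.

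Two-sided exact permutation tests of CPM over the libraries, computed for each of the 10 members, cannot go below p = 0.1 with 3 libraries against 3. Of the 6 members too low for the fit, Prf1 had an exact permutation p of 0.1, Gzmb 0.5 and Cd3g 0.7, and Cd3d, Cd3e and Cd8a had 1. Counts pooled over the libraries of a group and set against their totals gave a Prf1 level 69.2-fold lower in 15C4 (3 counts against 160, 95% exact interval 23.3 to 339), a Gzmb level 22.9-fold lower (14 against 247, 13.4 to 42.5) and a Cd3g level 18.2-fold lower (4 against 56, 6.71 to 69.0). Without IgG 1, the pooled ratio of 15C4 over IgG was 0.143 for Prf1 (3 counts against 13, interval 0.0262 to 0.521), 0.827 for Cd3g (4 against 3, 0.140 to 5.64) and 1.74 for Gzmb (14 against 5, 0.591 to 6.16). Gzmb thus turned to the higher side in 15C4 without that library, with an interval that includes 1. For Cd3e and Cd8a both groups had at most 3 counts, and no fold is given.

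**Figure D3:**
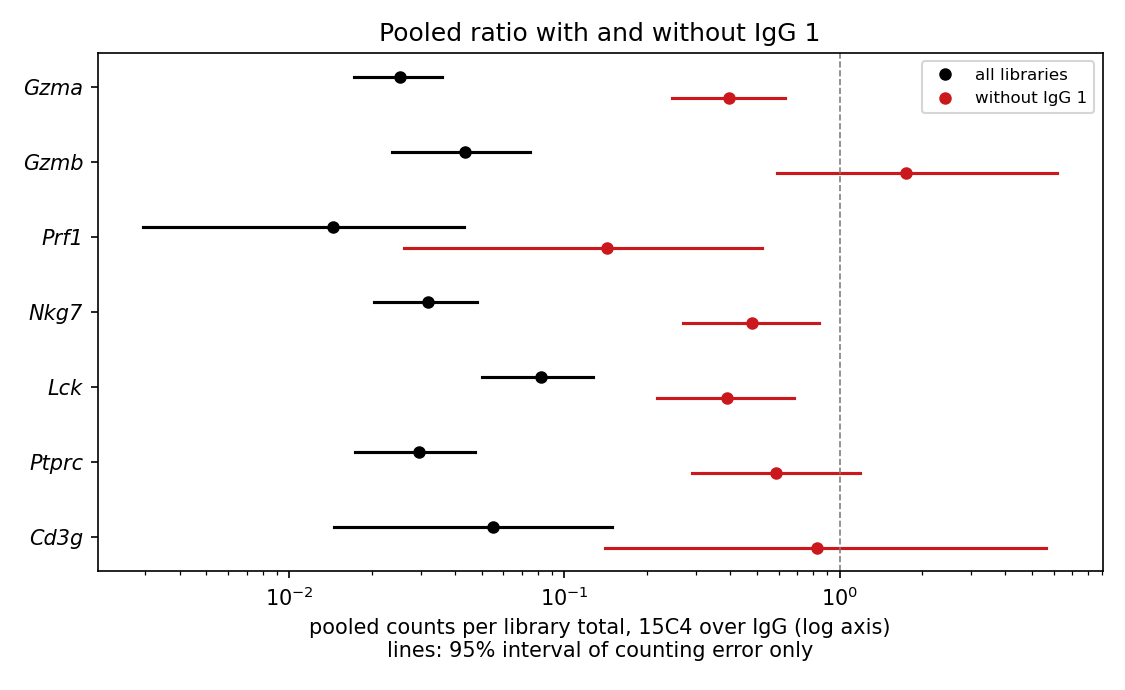
Counts of each gene pooled over the libraries of a group and divided by their totals, as the ratio of 15C4 over IgG on a log axis, with all libraries (black) and without IgG 1 (red). Lines are 95% intervals of counting error only, the dashed line marks equal levels, and the red points lie to the right of the black ones for all 7 genes, between 0.143 for Prf1 and 1.74 for Gzmb.

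The authors' deposited table lists 3 members with an adjusted p under 0.05, all higher in IgG, beside 2.71% of the 14112 genes that have an adjusted p in that table. On its scale of log2 IgG over 15C4, the authors' deposited table gives 5.86 for Gzma (adjusted p = 0.0100), 5.645 for Ptprc (0.00831) and 6.67 for Prf1 (0.0280). For Nkg7 and Lck the authors' deposited table has adjusted p of 0.123 and 0.129, and for Gzmb and Cd3g it gives no p. DESeq2 run here on the same counts called 0 members, and 0.223% of the 10324 genes with an adjusted p as lower in 15C4. Lck was the only 1 of the 4 fitted members with an adjusted p, and its unadjusted DESeq2 p was 0.0347. For Gzma, Ptprc and Nkg7 DESeq2 gave no p, as the tool does for genes with a count outlier. limma-voom called 0 members, with 0 at an unadjusted p under 0.05.

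The mix of member transcripts differed between libraries. Lck made up 25.7% of the member counts in 15C4 1 (18 of 70, Clopper-Pearson 95% interval 16% to 37.6%), against 6.77% in IgG 1 (172 of 2542, 5.82% to 7.81%) and 24.6% in IgG 2 (34 of 138, 17.7% to 32.7%). Gzma made up 15.7% in 15C4 1 (8.11% to 26.4%), against 36.3% in IgG 1 (34.4% to 38.2%) and 31.9% in IgG 2 (24.2% to 40.4%). Gzmb made up 15.7% in 15C4 1 (8.11% to 26.4%), against 9.52% in IgG 1 (8.41% to 10.7%) and 2.17% in IgG 2 (0.451% to 6.22%). Relative to the other members, 15C4 1 and IgG 2 thus held more Lck than IgG 1 did. Gzma was lower than in IgG 1 in 15C4 1, and Gzmb in IgG 2. Single libraries are compared here, and the intervals cover counting error only. The remaining 3 libraries had 13 to 35 member counts, too few to compare their mix.

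Other genes of T and NK cells were read from lists of 8 to 12 genes. Of the 12 NK cell receptor genes, 11 had counts and 10 of these were highest in IgG 1, where 16.6% of all genes were. Only Klrk1 and Cd160 were tested, and 0 passed. Klrk1, the gene of the activating receptor NKG2D, had 1.90, 0.204 and 0.156 CPM in 15C4, against 53.3, 1.66 and 0.343 CPM in IgG, with a log2 fold change of -4.60 (SE 2.03). Cd160, the gene of a surface receptor of NK and T cells, went against this pattern. It had 38.8 CPM in 15C4 1 and 15.3 CPM in IgG 1, with at most 4.07 CPM in the other 4 libraries, so the summed NK receptor level of 45.4 CPM in 15C4 1 was mostly this 1 gene.

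Of 12 chemokines, cytokines and receptors, 9 were highest in IgG 1 and 0 of 5 tested passed. Ifng, the cytokine interferon gamma, had 3, 0 and 0 counts in 15C4, against 84, 5 and 0 in IgG, and Xcl1, a chemokine of NK and T cells that attracts dendritic cells, had 9, 1 and 0 against 143, 4 and 1. Both were highest in IgG 1. Ccl5, a chemokine of T and NK cells, was highest in 15C4 1, with 214, 3.22 and 19.7 CPM in 15C4, against 124, 3.42 and 7.28 CPM in IgG, with a log2 fold change of 0.79 (SE 1.55). Il2rg, the shared gamma chain of cytokine receptors, was at 15.5, 15.0 and 31.3 CPM in 15C4, against 64.1, 10.27 and 0.428 CPM in IgG. Il18rap, a subunit of the interleukin 18 receptor, was at 0, 2.25 and 37.1 CPM in 15C4, against 18.7, 18.3 and 0.171 CPM in IgG. Ifng and Xcl1 are named here after their values were seen.

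Among the transcription factors, 10 of the 11 with counts were highest in IgG 1. Eomes, a T-box factor of NK cells and cytotoxic T cells, had 0, 13 and 0 counts in 15C4, against 44, 26 and 0 in IgG. Ikzf1, which encodes the lymphoid factor Ikaros, had 2, 0 and 0 counts in 15C4, against 37, 2 and 23 in IgG. Tcf7, which encodes TCF1 of the Wnt pathway and of naive T cells, was the 1 tested, with 14.6, 12.6 and 24.9 CPM in 15C4, against 2.13, 0.104 and 0.943 CPM in IgG, with a log2 fold change of 4.16 (SE 1.32, edgeR adjusted p = 1.00). Its groups did not overlap, and it was the exception to the list. In all, 321 of the 11144 tested genes lay higher in 15C4 without overlap. Of the proximal signalling genes 8 of 12 were highest in IgG 1, of the further T cell surface genes 5 of 7 with counts, of the further granule genes 4 of 7 and of the checkpoint receptors 5 of 7. None of the 8 tested genes of these 4 lists passed. The most abundant gene of each of the 4 lists was highest in another library than IgG 1.

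Of the proximal signalling genes, Lcp2, which encodes the adaptor SLP-76, was at 10.7, 37.9 and 119 CPM in 15C4, against 35.7, 34.2 and 3.09 CPM in IgG, and Prkcq, a protein kinase C, at 25.6, 72.2 and 13.8 CPM in 15C4, against 45.2, 62.7 and 1.80 CPM in IgG. Fyb, an adaptor gene, was at 0.238, 1.48 and 0 CPM in 15C4, against 10.8, 0.104 and 6.00 CPM in IgG. In all 3 the groups overlapped. Of the further granule genes, Lamp1, a lysosomal membrane protein, was at 336, 422 and 473 CPM in 15C4, against 385, 495 and 459 CPM in IgG. Srgn, the granule proteoglycan serglycin, was at 21.7, 189 and 359 CPM in 15C4, against 153, 46.3 and 2.14 CPM in IgG, and Serpinb9, an inhibitor of granzyme B, at 16.7, 47.8 and 253 CPM in 15C4, against 125, 143 and 15.2 CPM in IgG. Both were highest in 15C4 3. Of the checkpoint receptors, Tnfrsf9, the costimulatory receptor 4-1BB, was at 23.8, 18.7 and 64.1 CPM in 15C4, against 55.3, 12.1 and 39.7 CPM in IgG. Icos had 0 counts in each 15C4 library, against 13, 1 and 0 in IgG, and Tigit had 1, 0 and 0 against 11, 1 and 0. Thy1, a surface protein of T cells that other cells also carry, had 0 counts in all 3 15C4 libraries, against 8.89, 67.9 and 0 CPM in IgG. The lymphatic endothelial genes summed to 1094 CPM in IgG 2, against 11.6 to 63.8 CPM in the other 5 libraries, and their part in the Thy1 level was not tested.

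Markers of other cell types were summed in the same way. Pan-leukocyte genes summed to 11, 17.1 and 1.25 CPM in 15C4, against 264, 7.26 and 8.31 CPM in IgG, with 11 of 12 highest in IgG 1. Cd52, Itgb2 (the beta 2 integrin of leukocytes) and Cd53 were the most abundant, at 46.6, 40.4 and 36.3 CPM in IgG 1. None of the 5 tested pan-leukocyte genes passed. The macrophage and monocyte list summed to 21.4, 76.2 and 0.313 CPM in 15C4, against 124, 17.2 and 29.8 CPM in IgG. Of its 15 genes 9 were highest in IgG 1. Over all libraries the most abundant were Fcer1g, an adaptor that NK cells also use, at 42.9 CPM in IgG 1 and 21.0 CPM in 15C4 2, and Cd68, a lysosomal protein, at 27.2 CPM in IgG 3. In IgG 1, Tyrobp, also an adaptor of NK cells, was at 42.9 CPM, and the monocyte genes Ccr2, Ly6c2, Lyz2 and Itgam had 80, 36, 26 and 18 counts, the first 3 of them with 95% to 98.0% of their summed CPM there. The macrophage genes Csf1r, Adgre1, C1qa, C1qc and Mrc1 had at most 4 counts in IgG 1, while 15C4 2 had 385 counts of C1qc and 265 of Mrc1. These genes beyond Fcer1g and Cd68 are named after their values were seen, and the part of myeloid RNA in the IgG 1 values of the members was not tested. The B cell, neutrophil, platelet and red cell lists did not exceed 6.18 CPM in any library, nor the dendritic cell list 10.2 CPM, and their leading genes were Pax5 and Cd79a, S100a8 and Csf3r, Itga2b and Gp9, Alas2, and Zbtb46 and Itgax. All 4 neutrophil genes with counts and 6 of 7 dendritic cell genes were highest in IgG 1, where 16.6% of all genes with counts were. Of these, S100a8, Csf3r and Itgax had 17, 13 and 22 counts there. The rest had 1 to 4 counts there, too few to rank the libraries. Of the 6 mast cell and basophil genes, Kit, which melanocytes and endothelial cells also express, had counts and the other 5 had 0. Fibroblast genes summed to 0.119, 0.255 and 153 CPM in 15C4, against 94.1, 4.56 and 1.71 CPM in IgG. Lum alone, the gene of the matrix protein lumican, gave 151 CPM of the 15C4 3 sum. The other 5 of 6, led by the collagen gene Col3a1 with 132 counts, were highest in IgG 1, which held 88.1% to 93.0% of their summed CPM, and the part of fibroblast RNA in that library was not tested. Pan-endothelial sums were led by Cdh5 and Kdr, lymphatic ones by Mmrn1 and Lyve1 and melanocyte ones by Dct and Tyrp1. Pericyte and smooth muscle genes, led by Acta2 and Pdgfrb, summed to 13.0, 35.9 and 36.0 CPM in 15C4, against 9.66, 3.22 and 2.57 CPM in IgG. Cell cycle genes, led by Top2a and Mki67, summed to 787, 491 and 1406 CPM in 15C4, against 2423, 1038 and 777 CPM in IgG, with 10 of 12 highest in IgG 1, and the part of lymphocyte RNA in the IgG 1 value was not tested.

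**Figure D4:**
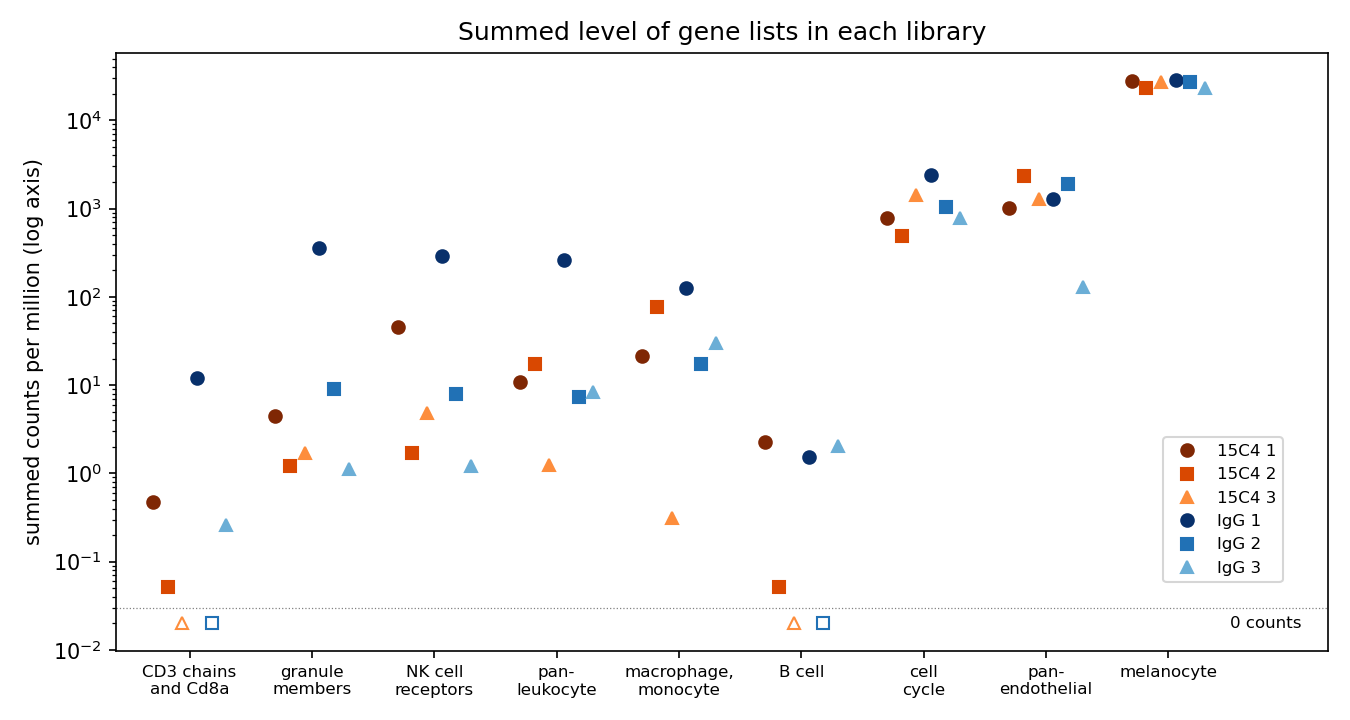
Summed CPM of 9 gene lists in each library on a log axis, with the 15C4 libraries in orange left of the IgG libraries in blue and open symbols for 0 counts. IgG 1 stands above the others for granule members (359 CPM), NK cell receptors (288 CPM) and pan-leukocyte genes (264 CPM). The summed CD3 chain genes and Cd8a are also highest in IgG 1, at 11.98 CPM against at most 0.476 CPM in any other library. The macrophage and monocyte sum and the cell cycle sum are highest there too, by smaller factors. The melanocyte sums lie between 23259 and 28464 CPM in all 6 libraries.

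The genes whose pattern over the 6 libraries was most like that of the summed members were found by the share of a gene's CPM in each library, compared with the same shares of the members (94.6% in IgG 1, 2.76% in IgG 2, 1.6% in 15C4 1). The distance is the summed absolute difference of shares divided by 2, and its median over the 11462 genes with at least 100 counts, the members left out, was 0.787. The 10 nearest were Klrb1c (distance 0.00618), Il2rb (0.00732), Klrd1 (0.00807), Ctsw (0.0115), Ncr1 (0.0118), Cd52 (0.0125), Laptm5 (0.0156), Rac2 (0.0164), Klri2 (0.0167) and Gimap3 (0.0186). Klrb1c, the nearest, had 0.714, 0.307 and 0.156 CPM in 15C4, against 47.5, 1.35 and 0 CPM in IgG. All but Gimap3 were on one of the lists above. Of these 11462 other genes, 20 had over 90% of their summed CPM in IgG 1.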

How the data were processed

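The tools named in the submitters' processing notes are STAR 2.5b, fastp, DESeq2 and featureCounts, and the builds mm10 and mm9, without roles. No source used here states the annotation or whether counting used strand. The authors deposited raw counts per gene symbol for each library. They also deposited a table of the series, which per the file headers holds normalised values (a score here, rounded counts over a size factor), group means of these (a signal), a fold change as a ratio and as log2, and a p-value with its adjusted value. Its raw counts equalled those of the libraries for the 24394 symbols found in both, and 27 symbols were not matched.

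CPM are of all counts, without normalisation factors. Counts were tested with edgeR 4.0.16 (R 4.3.3, TMM, filterByExpr with a minimum count of 10 and a total of 15, treatment as the only term, Benjamini-Hochberg over all genes tested). The SE is the absolute log2 fold change over the square root of F. The fit was checked on simulated counts. DESeq2 1.42.0 and limma-voom 3.58.1 were alternatives. Floors are 3 counts. Coordinates and exon lengths are from GENCODE M21, upstream sequences from RefSeq.

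The members and lists were chosen with earlier results of these data known. Genes named are all 10 members, the 3 most abundant of each T cell, NK cell and pan-leukocyte list, the 2 most abundant of each other list, markers that tell T from NK cells, and the 10 most similar in pattern. Genes named after their values were seen are marked as such.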

Additional observations from a re-analysis of the deposited data

How the results depend on the processing

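The log2 fold changes of Gzma, Ptprc, Nkg7 and Lck were below 0 under every alternative in which they were fitted, between -6.56 and -0.71, and 0 members were called in any of them. All alternatives but those without IgG 1 keep the library that held most of their counts. DESeq2 with all libraries gave no adjusted p for Gzma, Ptprc and Nkg7, so these could not be called there. Over all genes the count of calls was 0 with edgeR (288 genes had an unadjusted p under 0.05) and 0 in each fit with 1 library left out. It was 1 without a filter and 26 with DESeq2. Under settings chosen after seeing the data it was 14 without a filter and without IgG 1, 30 with DESeq2 without IgG 1, and 65 with DESeq2 without a filter. The cause of these differences was not tested. The pooled log2 ratio of Gzmb reversed, at 0.80 without IgG 1, and ranged from -6.33 (without 15C4 1) to 0.80 with 1 library left out. Without IgG 1 the other pooled log2 ratios lay between -2.80 and -0.27. With 1 of the other 5 libraries left out, they stayed below 0, between -6.93 and -2.29.

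The labels do not say whether the replicate numbers pair the libraries, and correlations this close to 0 cannot decide it. Deviations of same-numbered libraries from their group means correlated at -0.04, 0.06 and 0.10 over genes. While 15C4 1 correlated best with IgG 2 (0.07), 15C4 2 and 15C4 3 each correlated best with the IgG library of their own number. With a replicate block edgeR called 0 genes, and its log2 fold changes were -2.75 for Gzma, -2.90 for Ptprc, -3.14 for Nkg7 and -3.00 for Lck. With totals of 5175600 to 19572202, levels below 0.153 to 0.580 CPM (3 counts) could not be told from 0.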
